A study of Mus musculus with 18 samples.

Results

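Small RNAs annotated to the nuclear rRNA names 18S, 5.8S, 5S and the 45S precursor were followed in mouse sperm. A sequence was taken as a member when the first name in its annotation was one of these 4 names. There were 5769 such distinct sequences among 207217 in the 4 sperm libraries, and they held 213824 of 2358974 reads. By name they were 4237 sequences of 18S, 724 of 5.8S, 392 of 5S and 416 of 45S. No member sequence carried a second first name in another library (0 sequences). The 28S rRNA, with 6913 sequences and 732864 reads, served as the comparison. Sequences named 4.5S-rRNA (149 sequences, 427 reads), a rodent RNA that is no part of the ribosome, and those named only rRNA (110 sequences, 775 reads) were left out.

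The study compared sperm labelled Isca2 -/- (knockout, KO, 2 libraries) with wild-type sperm (WT, 2 libraries). ISCA2, the protein encoded by the targeted gene, works in mitochondria in the late steps of iron-sulfur cluster building. The sources used here do not give strain, age or the manner in which the knockout was made, nor do they state that replicates came from separate animals, so the p-values measure only the spread between these libraries. The library protocol in the labels describes blastocysts rather than sperm, and the small RNA files name no read for Isca2, so the genotype labels could not be checked from them.

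Ribosomal RNA is made from repeated genes. RNA polymerase I transcribes the 45S precursor, from which spacers are removed to leave 18S rRNA of the small ribosomal subunit and 5.8S and 28S rRNA of the large subunit. The 5S rRNA of the large subunit is transcribed apart, by RNA polymerase III. Mature sperm carry few intact ribosomes, and their small RNA includes many rRNA fragments beside tRNA fragments. RefSeq annotation of GRCm38.p6 lists 51 genes of the n-R5s series as 5S rRNA, 40 of them on chromosome 8. The fragments of such repeats cannot be traced to 1 gene copy, and the files give no position for them.

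The most abundant sequences of each name show which stretches of rRNA the reads came from. The 3 with the highest mean share of reads are printed for each name, as deposited, 5′ to 3′. Capitals mark the 15 bases that the most reads of that name contained, or, for 18S-1 and 5S-1, those that the most of the remaining reads contained. These 15-base cores were chosen after the data were seen.

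45S-1: gtgCTCCGGAGTTCTCTTcgggccagggc

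45S-2: ggtgCTCCGGAGTTCTCTTcgggccagggc

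45S-3: gtgCTCCGGAGTTCTCTTcgggccagggcc

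5S-1: acccTGAACGCGCCCGATCtcgtc

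5S-2: gAATACCGGGTGCTGTaggcttt

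5S-3: gAATACCGGGTGCTGTaggctt

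5.8S-1: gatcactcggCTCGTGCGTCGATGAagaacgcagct

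5.8S-2: gatcactcggCTCGTGCGTCGATGAagaac

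5.8S-3: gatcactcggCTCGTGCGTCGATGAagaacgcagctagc

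18S-1: tcGGAGGTTCGAAGACGatc

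18S-2: gtggtaattctAGAGCTAATACATGCc

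18S-3: tgtggtaattctAGAGCTAATACATGCc

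Within a name, the printed sequences overlap and differ mainly at their ends. The exceptions are 18S-1 and 5S-1, which come from other stretches than the 2 sequences printed beside them.

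The libraries held 703133 and 746812 reads in KO and 205993 and 703036 reads in WT, of 20 to 45 nucleotides (nt). WT replicate 2 stood apart, with 55.2% of its reads named 28S rRNA against 19.3% and 21.0% in KO and 25.2% in WT replicate 1. Nuclear tRNA took 19.4% and 14.4% of reads in KO and 10.5% and 9.10% in WT. The microRNA markers of cell types were too scarce to check the tissue label. Of 5 markers of sperm and late germ cells only 1 had reads, with 0 and 0 in KO and 2 and 0 in WT. The 5 markers of the epididymal epithelium had 0 and 5 reads in KO and 0 and 1 in WT, and the 10 of blood, leukocytes, muscle and liver had 1 and 0 in KO and 1 and 2 in WT. With 2 libraries a group, the smallest two-sided p that an exact permutation test can give is 0.333, so no single value below can pass 0.05 by that test. In bulk libraries, fewer cells of a type and less RNA per cell cannot be told apart.

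The 4 names together took 8.77% and 8.09% of reads in KO and 7.64% and 10.8% in WT. The groups overlapped, and the difference of means was -0.80 percentage points (exact permutation p = 1). Without WT replicate 2 it was 0.79. The counting error of any such share, as the half-width of its 95% exact binomial interval, was at most 0.115 percentage points. That interval covers counting error only, because reads were not tagged as molecules. Among members, 5.8S gave the most reads and 18S the most distinct sequences.

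Fragments named 45S, the precursor, took a larger share of reads in both KO libraries than in either WT library. The share was 0.503% and 0.591% of reads in KO and 0.266% and 0.193% in WT. The means were 0.547% ± 0.062 in KO and 0.229% ± 0.051 in WT (SD, n = 2 each), a difference of 0.318 percentage points with an exact permutation p of 0.333. Per 100 reads of 28S rRNA there were 2.60 and 2.81 reads of 45S in KO and 1.05 and 0.349 in WT (difference of mean log2 ratios 2.16, exact permutation p = 0.333). Without WT replicate 2 this log2 difference was 1.36, and without WT replicate 1 it was 2.95. Because 28S varied so widely between the WT libraries, the ratio to 18S rRNA was also taken. It was 17.0 and 20.8 reads of 45S per 100 of 18S in KO and 9.53 and 6.80 in WT (log2 difference 1.22, exact permutation p = 0.333). Of reads other than 28S, 45S took 0.624% and 0.749% in KO and 0.355% and 0.430% in WT. The groups did not overlap with any of these denominators. Relative to 28S this was not particular to 45S, because the groups did not overlap for 18S, 5.8S or 5S either. For 5S there were 5.42 and 4.03 reads per 100 of 28S in KO and 2.55 and 1.36 in WT.

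In edgeR's quasi-likelihood test over 64 annotation names, 45S had a log2 fold change of 1.09 (SE 0.41, unadjusted p = 0.0322) and an adjusted p of 0.710, so the call was not made. On TMM-scaled levels, both KO libraries lay above both WT libraries for 20.3% of all names, and 45S was the only one of the 4 member names to do so. No name was called in either direction (0% higher, 0% lower), with 2 names higher and 1 lower at an unadjusted p under 0.05. DESeq2 and limma-voom also called 0 names. The fitted change depends on how libraries are scaled. With library sizes taken without rRNA reads, the median of all names was -0.52 and the value of 45S 0.57, with library totals they were 0.26 and 1.32, and with RLE factors -0.19 and 0.91. Without WT replicate 2 the 45S log2 fold change was 1.13 and its share difference 0.282 percentage points.

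Nearly all 45S reads came from a single short stretch. The core capitalised in 45S-1 was present in 91.4% and 90.9% of 45S reads in KO and in 91.8% and 91.9% in WT. Its reads started at 2 neighbouring bases. The start of 45S-1 and 45S-3 held 59.5% and 59.5% of all 45S reads in KO and 52.7% and 59.9% in WT. The start 1 base further out, that of 45S-2, held 30.2% and 29.6% in KO and 37.1% and 29.7% in WT. The 3′ ends were more spread, with 5 positions holding at least 5% of the reads with the core. The precursor contains the mature rRNAs, yet 0 of the 416 sequences named 45S shared a run of 15 bases with a sequence named 18S. With 5.8S, 17 did, holding 30 and 58 reads in KO and 11 and 13 in WT, and with 28S, 4 did. Bases outside the mature rRNAs would belong to spacers, but no precursor reference was used here to place them.

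The sequence 45S-1 had 1095 and 1414 counts per 1000000 reads of the library (CPM) in KO and 699 and 358 CPM in WT. 45S-2 had 570 and 716 CPM in KO and 500.0 and 220 in WT. 45S-3 had 713 and 663 CPM in KO and 320 and 205 in WT. In each of the 3, both KO libraries lay above both WT libraries. Of the 416 sequences named 45S, 21 passed the count filter for edgeR's test, and 19 of these had a positive log2 fold change (median 0.92, against 0.09 over all 2877 sequences tested). For 13 of the 21 both KO libraries lay above both WT libraries and for 0 below, while over all sequences tested the shares were 23.6% above and 17.9% below. These 21 overlap one another, so they are not separate observations of the precursor, and passing the filter favoured sequences that were high in at least 1 genotype.

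Fragments of 5S rRNA took 1.05% and 0.847% of reads in KO and 0.642% and 0.750% in WT. The difference was 0.251 percentage points (means 0.948% ± 0.142 in KO and 0.696% ± 0.076 in WT, SD, n = 2 each, exact permutation p = 0.333). The groups did not overlap by this measure, but they overlapped among reads other than 28S, where 5S took 1.30% and 1.07% in KO and 0.858% and 1.68% in WT. Relative to 18S there were 35.3 and 29.9 reads of 5S per 100 in KO and 23.0 and 26.5 in WT (log2 difference 0.39, exact permutation p = 0.333). In edgeR's test the log2 fold change was 0.22 (SE 0.44, adjusted p = 0.953), and it turned to -0.30 when library sizes were taken without rRNA reads. Without WT replicate 2 it was 0.64.

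The 2 main 5S stretches behaved differently across libraries. The stretch of 5S-2 and 5S-3, which holds the known 3′ end of 5S rRNA, was in 76.0% and 90.2% of 5S reads in KO and in 65.3% and 65.8% in WT. It had 7969 and 7647 CPM in KO and 4194 and 4937 in WT, with no overlap on library totals. After division by the TMM factors for sequences (1.13 and 1.17 in KO, 1.10 and 0.687 in WT), the groups overlapped. On TMM-scaled levels, both KO libraries lay above both WT libraries for 23.6% of all sequences tested. Reads of this stretch began at many bases, 7 of them with at least 5% of its reads, and ended mostly at 2 neighbouring bases. The end of 5S-3, GGCTT, closed 36.0% and 39.5% of 5S reads in KO and 27.4% and 29.95% in WT. The end 1 base longer, GGCTTT, closed 25.6% and 34.9% in KO and 25.2% and 21.9% in WT.

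5S-1, from the other stretch, had 1638 and 366 CPM in KO and 1723 and 1703 in WT. KO replicate 2 alone was low, and KO replicate 1 was close to the WT libraries. Reads of this stretch had a sharp start. In KO 95.7% and 90.9% of them, and in WT 96.2% and 96.1%, shared 1 start, that of 5S-1. Its 3′ end was nearly as sharp, with 82.8% and 77.01% of the reads in KO and 87.1% and 83.0% in WT ending where 5S-1 ends. 5S-2 had 1466 and 1711 CPM in KO and 680 and 693 in WT, and 5S-3 had 1146 and 1135 in KO and 359 and 577 in WT. Both lay higher in both KO libraries than in either WT library, and neither was called by edgeR. Of 61 tested 5S sequences, 35 had a positive log2 fold change (median 0.14, against 0.09 over all sequences). Both KO libraries lay above both WT libraries for 12 and below for 4 of the 61, which is no larger a share than the 23.6% and 17.9% over all sequences.

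The 5.8S rRNA gave more reads than any other member name, and its share was set apart by 1 library. It took 4.25% and 3.81% of reads in KO and 3.94% and 7.04% in WT. The difference of means, 4.03% ± 0.31 in KO and 5.49% ± 2.19 in WT (SD, n = 2 each), was -1.47 percentage points (exact permutation p = 0.667), and without WT replicate 2 it was 0.08. In edgeR's test the log2 fold change was -0.72 (SE 0.55, adjusted p = 0.934), or 0.11 without WT replicate 2. Relative to 28S there were 22.0 and 18.1 reads of 5.8S per 100 in KO and 15.7 and 12.8 in WT (log2 difference 0.50, exact permutation p = 0.333). Relative to 18S there were 143.05 and 134.14 in KO and 141.57 and 248.26 in WT, which overlap.

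Most 5.8S reads began at 1 base or the next base inward, and they differed at the 3′ end. The core of 5.8S-1 was in 79.2% and 79.6% of 5.8S reads in KO and in 75.7% and 92.1% in WT. The start shared by 5.8S-1, 5.8S-2 and 5.8S-3 held 48.8% and 50.9% of 5.8S reads in KO and 46.0% and 60.9% in WT, and the start 1 base inward held 21.6% and 20.2% in KO and 17.8% and 21.2% in WT. Which 3′ end was the most common varied between libraries. The 36-nt form, 5.8S-1, had 8666 and 3203 CPM in KO and 6447 and 26249 in WT, so that the WT libraries differed by more than the genotypes did. The 30-nt form, 5.8S-2, had 4365 and 7602 in KO and 3787 and 4011 in WT. The 39-nt form, 5.8S-3, had 3497 and 2547 in KO and 3898 and 5323 in WT. 30 nt was the most common 5.8S length in KO replicate 2 (22.6%) and 36 nt in the other 3 libraries (21.0% in KO replicate 1, 16.8% and 37.6% in WT). The mean 5.8S length was 33.0 and 32.3 nt in KO and 33.2 and 34.8 nt in WT, a difference of -1.30 nt (exact permutation p = 0.333). Counted once per distinct sequence it was -0.18 nt.

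The only members called higher by edgeR were a pair of 5.8S sequences that end in A. The test over 2877 distinct sequences called 10 higher (0.348%) and 2 lower (0.0695%), and 542 of the 5769 members passed its count filter. Of the members, 2 were called higher and 1 lower. They are printed because they alone carried a call.

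5.8S, 29 nt: gatcactcggctcgtgcgtcgatgaagaa

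5.8S, 28 nt: atcactcggctcgtgcgtcgatgaagaa

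18S, 23 nt: actatctagaggaagtaaaagtc

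The 29-nt form had 171 and 149 reads in KO and 0 and 1 in WT (edgeR log2 fold change 6.95, SE 1.32, adjusted p = 0.00671). The pooled ratio of KO to WT, per read of library, was 201, with a 95% counting interval of 35.8 to 7949. The 28-nt form starts 1 base inward and ends at the same base. It had 150 and 115 reads in KO and 1 and 1 in WT (edgeR log2 fold change 5.68, SE 1.20, adjusted p = 0.0218), with a pooled ratio of 83.1 (22.8 to 690). The 29-nt form is 1 base shorter at its 3′ end than 5.8S-2, which was abundant in every library, with 3069 and 5677 reads in KO and 780 and 2820 in WT. The adjusted p ran from 7.3e-05 to 0.333 over 13 alternatives for the 29-nt form and from 0.000148 to 0.753 for the 28-nt form. They lay under 0.05 in 10 and 9 of these. Leaving out either KO library or using limma-voom ended both calls. Using library totals also ended that of the 28-nt form.

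The last base of nuclear rRNA reads was also compared. Member reads ending in A were 1.64% and 1.92% in KO and 0.515% and 0.222% in WT (exact permutation p = 0.333). By name, 5.8S reads ending in A were 2.23% and 2.69% in KO and 0.615% and 0.198% in WT, and 18S reads were 1.49% and 1.81% in KO and 0.540% and 0.331% in WT. The member and 5.8S shares hold the 2 called 5.8S sequences themselves. In KO the 29-nt form had 171 and 149 reads and the 28-nt form 150 and 115, of 665 and 764 5.8S reads ending in A. No share was taken without them. Reads of 28S ending in A were 2.17% and 1.88% in KO and 0.939% and 0.490% in WT. Among sequences other than nuclear rRNA the groups overlapped, with 6.59% and 6.88% in KO and 7.83% and 4.40% in WT. The shift was not particular to A. Member reads ending in G were 13.7% and 18.8% in KO and 13.3% and 9.97% in WT, and 28S reads ending in G were 3.85% and 3.42% in KO and 1.90% and 0.812% in WT, also with no overlap. In 5.8S itself the groups overlapped for G, with 14.3% and 23.2% in KO and 14.5% and 9.85% in WT. They overlapped in 5S too, but not in 18S or 45S. These shares were examined after the calls were seen, and the part of the last base in the calls was not tested.

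Reads with the start of 5.8S-1 show gaps at set lengths. Among 62958 such reads in the 4 libraries, 0 were 33, 34, 37 or 38 nt long, which allows a share of up to 0.00477% for each length. Just before the first gap, the 32-nt form had 347 and 342 reads in KO and 109 and 542 in WT. Between the gaps, the 35-nt form had 313 and 332 in KO and 153 and 1813 in WT, and 5.8S-1 itself 6093 and 2392 in KO and 1328 and 18454 in WT. Forms of 22 and 27 nt also had 0 reads. Each missing form would end in A, or in a G that follows an A. Other forms with this start that end in A did have reads. At 25 nt there were 294 over the 4 libraries, at 28 nt 131 and 213 in KO and 8 and 22 in WT, and at 29 nt the counts of the called sequence. The submitters' notes name Trim Galore 0.4.5 for the series. Whether and how it was applied to these reads is not given in the sources used here.

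Fragments of 18S rRNA, of the small subunit, took nearly the same share of reads in each library. It was 2.97% and 2.84% in KO and 2.79% and 2.84% in WT. The means were 2.90% ± 0.09 in KO and 2.81% ± 0.03 in WT (SD, n = 2 each), a difference of 0.0926 percentage points (exact permutation p = 0.333). In edgeR's test the log2 fold change was -0.16 (SE 0.43, adjusted p = 0.953), and it was 0.12 with library totals and 0.14 without WT replicate 2. Relative to 28S there were 15.4 and 13.5 reads of 18S per 100 in KO and 11.1 and 5.14 in WT (log2 difference 0.93, exact permutation p = 0.333), or a log2 difference of 0.38 without WT replicate 2.

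The 18S reads were scattered over more sequences than those of the other names. At an equal depth of 5740 reads of 18S, 1313 and 1377 distinct sequences were seen in KO and 1161 and 1080 in WT. The stretch of 18S-2 and 18S-3 was in 32.1% and 29.7% of 18S reads in KO and 41.6% and 19.7% in WT, and that of 18S-1 in 11.9% and 13.9% in KO and 10.5% and 20.8% in WT. The WT libraries lay on either side of the KO libraries for both stretches. Reads of the first stretch ended at 1 base in about the same share of every library, 48.8% and 48.9% in KO and 48.3% and 49.8% in WT, which is where 18S-2 ends. 18S-1, of 20 nt, had 1185 and 984 CPM in KO and 1049 and 3954 in WT. 18S-2 had 1806 and 1484 in KO and 2767 and 740 in WT, and 18S-3 had 1152 and 849 in KO and 1495 and 647 in WT. In WT replicate 2, 20 nt was the most common 18S length, at 20.9% of 18S reads, while in the others it was 28 nt in KO (11.7% and 10.2%) and 27 nt in WT replicate 1 (15.1%). The mean 18S length was 28.6 and 28.2 nt in KO and 29.4 and 26.7 nt in WT, with overlap.

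The 23-nt sequence of 18S printed above was called lower, with 0 and 0 reads in KO and 7 and 97 in WT (adjusted p = 0.00420 by edgeR). Against a floor of 3 reads per KO library, the WT level was 20.8-fold higher, or 8.20-fold higher without WT replicate 2. The WT counts were taken as exact, and the 8.20 rests on 7 reads, so neither value is a lower bound. Most reads of the sequence were in WT replicate 2. Over 11 alternatives its adjusted p ran from 4.7e-12 to 0.640 and was under 0.05 in 7. The call ended with library totals, limma-voom or without either KO library. Without WT replicate 2, or with a filter of 10 reads in 2 libraries, the sequence was not tested. It belongs to a stretch that was common in every library. The 131 sequences with a core of 15 of its bases had 2645 and 1430 CPM in KO and 2952 and 3611 in WT. The form with this start and end had 0 reads in KO, while the stretch as a whole was read in every library.

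Grouping sequences by name and first 15 bases gave deeper counts and 0 calls in either direction (0% of 2070 groups higher, 0% lower). Of 1486 member groups, 302 passed the count filter. At an unadjusted p under 0.05, 3 of the 302 member groups were higher and 9 lower, where 97 and 79 of all 2070 groups were. DESeq2 called 1 member group, lower, among 16 higher and 14 lower over all groups, and limma-voom called 0 members, with 1 group lower over all. The groups of lowest p were all of 18S. The start cacccggcccggaca had 20 and 16 reads in KO and 0 and 1 in WT (adjusted p = 0.484, edgeR), and aataacaatacagga had 19 and 17 in KO and 1 and 0 in WT (0.524). The start actatctagaggaag, which is that of the 23-nt sequence, had 8 and 1 reads in KO and 11 and 105 in WT (edgeR log2 fold change -4.54, SE 1.23, adjusted p = 0.301). It was the group called by DESeq2 (adjusted p = 0.0255). The start ggcgttcagccaccc had 8 and 5 in KO and 5 and 81 in WT (adjusted p = 0.418, edgeR). For both of these most WT reads were in WT replicate 2.

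Over all member groups tested, both KO libraries lay above both WT libraries for 59 and below for 51 of 302, where all groups gave 21.4% and 16.9%. For distinct sequences the member counts were 124 above and 105 below of 542, against 23.6% and 17.9% over all sequences. The member counts are near these backgrounds. By name, 45S had 5 of 7 tested groups above and 0 below, 5S 3 and 4 of 29, 5.8S 9 and 10 of 45, and 18S 42 and 37 of 221. All 7 tested 45S groups had a positive log2 fold change (median 0.92, against 0.10 over all groups). Most 45S reads lay in a single stretch with neighbouring starts, so these 7 groups are not separate observations of the precursor. Passing the count filter also favoured groups that were high in either genotype.

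The names also differed in traits that the rule had not used, though genome match and base content depend on the same sequence that was named. Of reads, 0% of those named 5.8S matched the genome in any library and 100% of those named 5S did, per the match column of the deposited files. For 45S the share was 96.0% and 95.1% in KO and 95.6% and 96.0% in WT, and for 18S 78.9% and 80.4% in KO and 75.6% and 86.4% in WT. For 28S it was 19.5% and 15.8% in KO and 9.30% and 4.59% in WT. The 45S fragments were the richest in G and C, at 67.6% and 67.5% in KO and 68.0% and 67.6% in WT, while 18S had 50.0% and 50.9% in KO and 48.0% and 49.9% in WT. Lengths separated the names as well. Forms of 20 to 24 nt made up 59.7% and 60.5% of 5S reads in KO and 57.1% and 61.8% in WT, and 4.92% and 7.10% of 5.8S reads in KO and 4.65% and 3.03% in WT. Forms of 35 to 39 nt made up 42.1% and 23.7% of 5.8S reads in KO and 41.6% and 64.2% in WT. The mean length was 27.5 and 27.4 nt for 45S in KO and 28.3 and 27.3 nt in WT, and 25.7 and 25.3 nt for 5S in KO and 26.2 and 25.4 nt in WT. Neither separated the genotypes.

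The sequences found in all 4 libraries carried most of the reads. They were 585 of the 4237 of 18S, 194 of the 724 of 5.8S, 96 of the 392 of 5S and 26 of the 416 of 45S. These held 91.6% and 91.6% of 45S reads in KO and 93.6% and 93.1% in WT, and 77.8% and 75.1% of 18S reads in KO and 85.9% and 83.4% in WT.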

How the data were processed

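Each sperm file held 1 line per distinct sequence with its length in nucleotides, its whole read count, whether it matched the genome and an annotation string, as deposited by the authors. The counts are not normalized. The submitters' processing notes name Trim Galore 0.4.5, STAR 2.6.1c, RSEM 1.3.1, DESeq2 1.42.1 and mm10/GRCm38 for the series, without their roles. The sources used here do not name the annotation tool or its rRNA references.

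Counts were added up per first annotation name (sequences without one, 14.7% and 20.4% of reads in KO and 17.4% and 8.71% in WT, left out), per name and first 15 bases, and per sequence. Each table was tested whole in R 4.3.3 with edgeR 4.0.16 (glmQLFTest after filterByExpr, TMM factors, genotype as the only term, Benjamini-Hochberg adjustment, threshold 0.05). TMM factors for sequences were 1.13 and 1.17 in KO and 1.10 and 0.687 in WT. The scripts were tested on simulated counts. Shares, ratios and mean lengths were compared with exact permutation tests. Equal-depth numbers of distinct sequences are expected values without replacement. Alternatives covered scaling, library size, count filter, DESeq2 1.42.0, limma-voom (limma 3.58.1), replicate block, name and start definitions, denominators, and each library left out.

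The rule for naming took, per name, the 3 most abundant sequences, the 2 most abundant starts, and up to 4 called members in each direction, or the 2 of lowest p where none was called. The members and lists were chosen with earlier results of these data known. The cores, the last base, the lengths with 0 reads, the ratio to 18S, the share of reads other than 28S and the crossed block were added after the data were seen.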

Additional observations from a re-analysis of the deposited data

How the results depend on the processing

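Of 293 values recomputed under alternatives, 244 kept their direction and side of the threshold, or moved by less than the replicate spread. Of the others, 30 moved further, 7 fitted log2 fold changes turned in direction, 11 lost a call and 1 gained one. Shares, ratios and lengths were judged only by how far they moved, so changes of sign in them are not among the 7. For example, the share difference of all members went from -0.80 to 0.79 percentage points without WT replicate 2. The 45S log2 fold change stayed between 0.57 and 1.32 and was called under none of 14 alternatives. The cause of the changes below was not tested. For 18S the log2 fold change was 0.12, against -0.16, with library totals. For 5S it was -0.30 with library sizes without rRNA and -0.087 by whole annotation string, against 0.22. Leaving out 1 library at a time gave -0.43 to 0.14 for 18S, -1.22 to 0.11 for 5.8S and -0.17 to 0.64 for 5S. For 18S and 5.8S the positive values came without WT replicate 2 (0.14 and 0.11), and for 5S the negative ones without KO replicate 1 (-0.17) or WT replicate 1 (-0.08).

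Called member sequences numbered 2 higher and 1 lower. They were 4 and 0 with at least 10 reads in 2 libraries (33 and 7 of 2540 over all sequences), 1 and 0 with library totals (6 and 0 of 2877), 0 and 0 with limma-voom (0 and 0), and 2 and 3 with library sizes without rRNA (17 and 15). Leaving out 1 library gave 0 to 25 higher and 0 to 44 lower. The highest numbers, of 734 members, came without WT replicate 1, where 269 and 294 of all 3964 sequences were called. Members had 0 calls without either KO library, and 0 lower without WT replicate 2 (16 lower over all). For starts, DESeq2 called 1 member lower and edgeR 0. Among all starts, DESeq2 called 16 higher and 14 lower. Where 1 library was left to a genotype, it was assumed to vary like the other genotype.

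Replicate numbers are not said to pair the libraries, and same-numbered libraries deviated apart (correlation -0.25 over names, -0.16 over starts and -0.07 over sequences). The fit with the replicate block called 0 names, 0 member starts, and 2 member sequences higher and 1 lower, with a 45S log2 fold change of 1.09. Crossed pairing gave the same member counts.

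Among values with no call, 18S had a share difference of 0.283 among annotated reads and -1.39 among reads other than 28S. With that last denominator the difference was -5.45 for 5.8S, -0.081 for 5S and -6.63 for all members. For 45S it was 0.40 among annotated reads. The log2 ratio to 28S was 1.25 for 5.8S and 1.20 for all members with reads of at most 30 nt, and the ratio to 18S gave -0.44 for 5.8S, 0.39 for 5S and 1.22 for 45S. Mean length differences with each distinct sequence counted once were -0.18 nt for 5.8S, 0.15 nt for 5S and -0.10 nt for all members. In genome-matching sequences, which leave out all 5.8S reads, the difference for all members was 0.18 nt. Depth limits mainly WT replicate 1, with 547 reads of 45S and 1323 of 5S.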

Other observations

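Lower-ranked 15-base cores were also described, each on the reads left after those with a higher-ranked core were set aside. The third core of 5.8S lies within 5.8S-1, so its reads come from that stretch but lack the whole first core. Its most abundant sequence begins before the start of 5.8S-1. These reads had 623 and 1070 counts per 1000000 reads (CPM) in KO and 369 and 383 in WT. Both KO libraries lay above both WT libraries on these library totals, but not after division by the TMM factors for sequences. No such share was taken over all features. The second core of 5.8S held 17.2% and 14.7% of 5.8S reads in KO and 21.4% and 6.30% in WT. The fourth core of 18S had 2502 and 1967 CPM in KO and 1830 and 1668 in WT. The third core of 5S had 350 and 198 CPM in KO and 136 and 289 in WT, and the groups overlapped. These cores were ranked on the reads of all 4 libraries after the data were seen, and no test was run on them.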
